A study of Mus musculus with 1 sample.

Results

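Genes for lipoprotein particles, for cholesterol efflux and for lipoprotein uptake were examined in mouse glia. The set was chosen by gene symbol and held 9 genes of the 23282 rows in the table: the apolipoproteins Apoe, Apoc1 and Apod, the phospholipid transfer protein Pltp, the efflux transporters Abca1 and Abcg1, and the uptake receptors Lrp1, Vldlr and Lrp8. Each symbol occurred in 1 row. The values came from 1 RNA-seq library of primary mixed glia, labelled as the control. The source was the ventral midbrain (VM) of outbred ICR(CD-1) mouse pups at postnatal day 5, in medium with 10% fetal bovine serum, and it was not stated whether pups were pooled or whether the control received the toxins that the labels mention for treated cells. The study's legends describe this control as treated with the vehicle DMSO, while its treated cultures received GSK-650394, an inhibitor of serum- and glucocorticoid-regulated kinase 1 (SGK1). Libraries of treated glia were not analysed here. With 1 library there is no error between cultures, no value below has a replicate check, and no test was made.

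Neurons and glia cannot take cholesterol from the blood, because plasma lipoproteins do not cross the blood-brain barrier, so the brain makes its own particles. Astrocytes are the main makers of these particles and microglia contribute. ABCA1 moves phospholipid and cholesterol from the cell onto lipid-poor apolipoprotein E, and ABCG1 adds cholesterol to particles that already carry lipid. PLTP moves phospholipid between particles, and members of a lipoprotein receptor family, among them LRP1, VLDLR and LRP8 (ApoER2), bind apolipoprotein E and take particles up or signal from the cell surface. Transcription of Apoe, Abca1, Abcg1 and Pltp is known to respond to the liver X receptors, which sense oxysterols.

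The sequences before the start of the highest gene in each of 3 roles are shown, to place the particle (Apoe), efflux (Abca1) and uptake (Lrp1) genes on the genome. Each is the 250 bases before the annotated start, from RefSeq on GRCm38.p6, on the minus strand and written 5′ to 3′. They lie at chr7:19699189-19699438 for Apoe, chr4:53159896-53160145 for Abca1 and chr10:127621149-127621398 for Lrp1. Capitals mark matches to the motifs searched.
Apoe: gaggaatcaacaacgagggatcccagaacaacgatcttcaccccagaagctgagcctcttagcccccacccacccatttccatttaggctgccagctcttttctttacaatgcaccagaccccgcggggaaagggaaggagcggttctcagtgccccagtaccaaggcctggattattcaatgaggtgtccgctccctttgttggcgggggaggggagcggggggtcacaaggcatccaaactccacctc
Abca1: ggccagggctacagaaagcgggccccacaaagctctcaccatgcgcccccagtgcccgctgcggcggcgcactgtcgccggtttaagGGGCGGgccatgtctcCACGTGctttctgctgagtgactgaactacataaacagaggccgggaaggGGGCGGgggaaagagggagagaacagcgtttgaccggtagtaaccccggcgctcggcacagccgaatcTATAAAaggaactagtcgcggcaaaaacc
Lrp1: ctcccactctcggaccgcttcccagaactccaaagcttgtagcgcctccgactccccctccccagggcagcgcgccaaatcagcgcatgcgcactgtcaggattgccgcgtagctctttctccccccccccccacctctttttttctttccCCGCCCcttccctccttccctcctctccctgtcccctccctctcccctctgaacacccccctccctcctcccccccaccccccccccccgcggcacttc

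Both strands of 32841 such windows were searched for 6 motifs. The TATA box (TATAAA) was held by 12.4% of windows and the GC box (GGGCGG) by 32.7%. The CCAAT box was held by 33.9% and the E-box (CACGTG) by 6.02%. The nuclear receptor half-site AGGTCA was held by 14% of windows, and its direct repeat with a spacer of 4 bases (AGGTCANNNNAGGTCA), which contains that half-site, by 0.0152%. The Abca1 window held a TATA box 29 to 24 bases before the start, an E-box 147 to 142 bases before it and 2 GC boxes, at 163 to 158 and 97 to 92 bases. The Lrp1 window held 1 GC box, on the opposite strand, 99 to 94 bases before the start. The Apoe window held no match to the 6 motifs. Bases G and C made up 57.2% of the Apoe window, 61.6% of the Abca1 window and 67.2% of the Lrp1 window, against a median of 52.4% over all windows. The Abca1 window held 20 CpG dinucleotides, the Lrp1 window 13 and the Apoe window 8, against a median of 6. These matches describe the letters in the windows and were not compared with binding data. Apart from the spacer, only exact letters were searched, so variant forms of a motif, in the Abca1 window or the others, would not be marked.

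A gene counted as detected when its value reached 10, which held for all 9 genes and for 67.2% of all rows. The values were normalised read counts as given by the authors, and they summed to 27569507 over the table. The 9 genes together held 3.91% of this sum, and without Apoe the other 8 held 0.248%. A read count grows with the length of the transcript, so levels were compared between genes as the value per kilobase (kb) of annotated exon. On that scale the median over the 9 genes was 534, against 102.5 over the 15453 detected genes with an annotated length, and 7 of the 9 lay above that median. Vldlr and Lrp8 lay below it. Abcg1, at 107 per kb, was only just above it. With the longest and with the principal transcript Abcg1 was above 49.4% and 46.9% of detected genes, so it then lay below the median. The level of Apoe alone made up 98.3% of the summed levels per kb of the 9 genes. For the lists below, counts above the detected median per kb are out of all listed genes, detected or not. Of 22815 matched genes 15453 were detected, so the share expected above that median is lower than among detected genes alone.

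**Figure D1:**
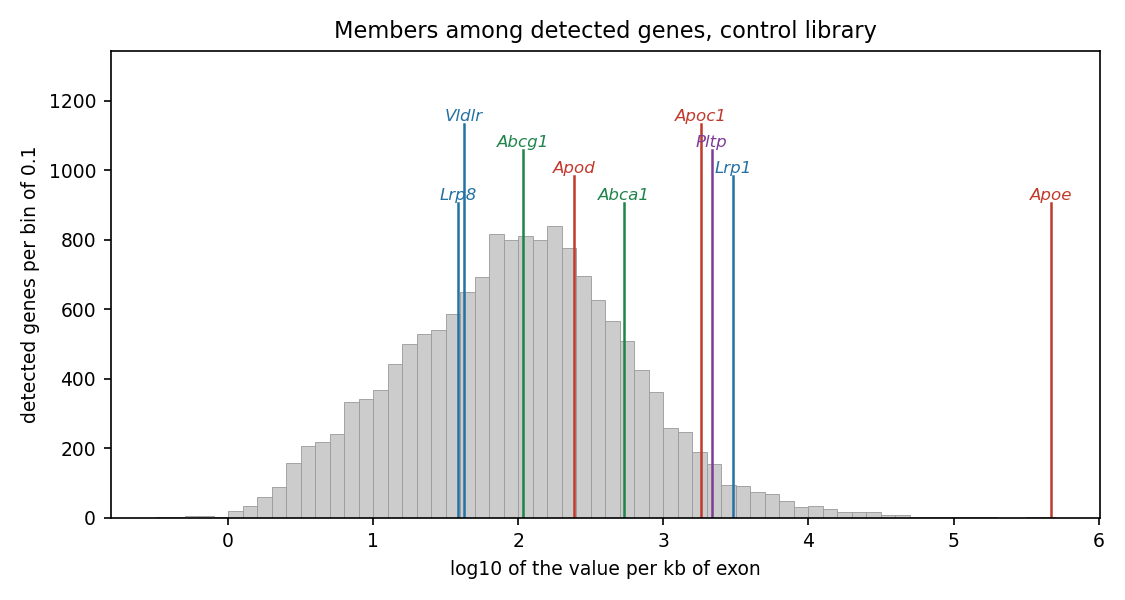
The histogram shows the log10 of the value per kb of exon for the 15453 detected genes with a length, in bins of 0.1, and coloured lines mark the 9 genes (red, apolipoproteins; purple, transfer protein; green, efflux transporters; blue, receptors). Apoe stands at the far right end, Lrp1, Pltp and Apoc1 lie in the upper tail, and Vldlr and Lrp8 lie left of the peak.

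Apoe, which encodes the main apolipoprotein of brain particles (ENSMUSG00000002985.16, chromosome 7, 19696109 to 19699188, minus strand, 2138 bases of exon), had a value of 1010177. Its level was 472487 per kb, the highest of all genes with an annotated length. Lyz2, the lysozyme gene of macrophages and microglia, was next at 378587 per kb, followed by Spp1, the gene of the secreted protein osteopontin, at 197009 per kb. Small nucleolar RNA genes, whose short lengths raise a value per kb, took the next 3 places and reached 163243 per kb for Snord34. Apoe thus led the table on both scales, as a value and per kb of exon. With coding lengths Apoe was above 99.986% of detected genes, against 99.994% with exon lengths, so the lead per kb was not kept there.

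Apoc1 encodes a small apolipoprotein that is carried on the same particles and restrains lipases and receptor binding. It lies on chromosome 7 (19689481 to 19692660, minus strand) and has 744 bases of exon. Its value was 1346, above 75.0% of detected genes, and its level of 1809 per kb was above 95.0% of them. Per kb, the Apoe level was 261 times that of Apoc1. Apod encodes a lipocalin, a carrier of small lipids that is structurally unlike apolipoproteins E and C1 (chromosome 16, 31296192 to 31314808, minus strand, 2577 bases of exon). Its value of 624 was above 56.5% of detected genes. Its level was 242 per kb, so Apoc1 was 7.47 times higher, and 4.63 times with coding lengths.

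A list of 12 other apolipoprotein genes was set beside them. Of these, 6 were detected (50%, against 67.2% of all rows), 1 was below the minimum and 5 were listed at 0. Clu, which encodes clusterin (apolipoprotein J), also made by astrocytes, had the highest level of them at 2740 per kb (value 9419). Apoc2, whose product activates lipoprotein lipase, followed at 1582 per kb (value 1286), and Apoa2, known from plasma high density particles, was at 35.4 per kb (value 19). The lowest detected gene was Apoc4, with a value of 18 and a level of 7.10 per kb. Apoa1, the main apolipoprotein of those plasma particles, had a value of 7, under the minimum. Apob, the structural protein of plasma low density lipoprotein, was listed at 0, as were Apoa4, Apoa5, Apoc3 and Apom. Apoe made up 98.7% of the summed level per kb of the 15 listed apolipoprotein genes, and between 98.4% and 98.7% over 4 definitions of length. Clu held place 2 in this list, Apoc1 place 3 and Apod place 5.

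Apoe and Apoc1 belong to a gene cluster, so all annotated genes within 50 kb of Apoe were listed. There were 9 of them, Apoe included, and 8 had a row, while the antisense gene Gm20512 had none. In the direction of Apoe transcription the order was Nectin2, Tomm40, Apoe, Apoc1, Apoc4, Apoc2 and Clptm1, all on the minus strand, with 3448 bases between Apoe and Apoc1. Gm44805, a coding gene model on the same strand, runs across Apoc4 and Apoc2. Upstream of Apoe, Tomm40, the channel of mitochondrial protein import, had a value of 1515 (336 per kb). Nectin2, a cell adhesion gene, had a value of 743 (213 per kb). Downstream of the cluster, Clptm1 had a value of 5084 (819 per kb). Of the genes in this window Apoc1 had the second highest level and Apoc2 the third, while Apoc4, which lies between them, was lowest. Gm44805 had a value of 408 (533 per kb), and it shares 646 exon bases with Apoc2 on the same strand, which is 79.5% of the Apoc2 exons, so the Apoc2 and Gm44805 values cannot be told apart by position over those bases. It shares 119 bases with Apoc4.

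**Figure D2:**
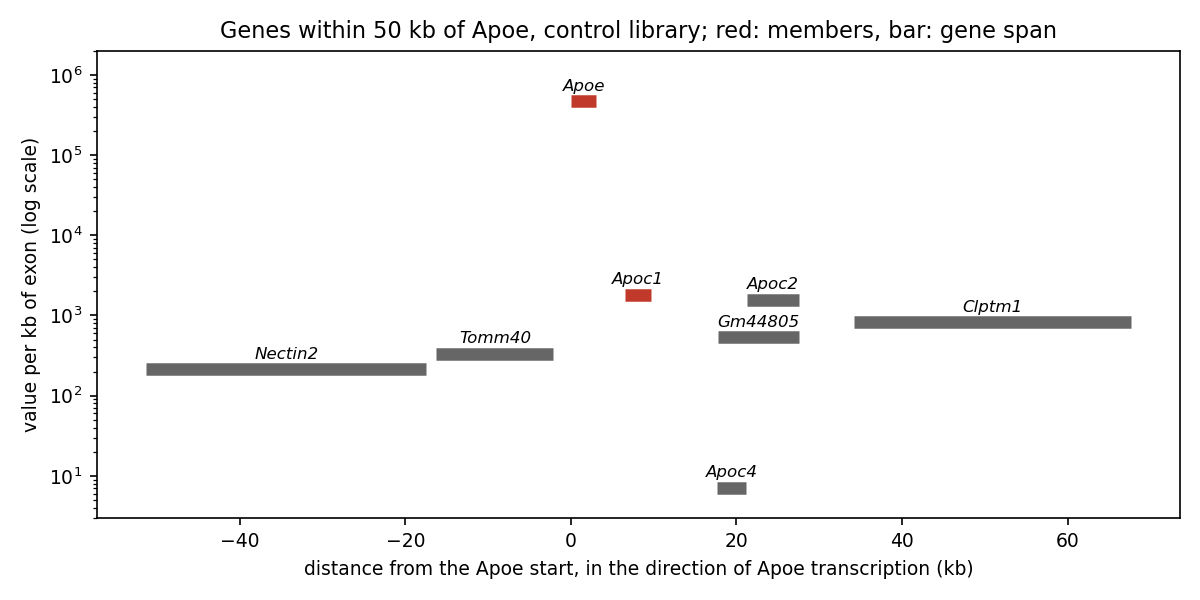
Bars show the span of each gene with a row within 50 kb of Apoe, by distance from the Apoe start in kb (horizontal) and by value per kb of exon on a log scale (vertical). Apoe, in red at 472487 per kb, stands far above its neighbours, whose levels run from 7.10 (Apoc4) to 1809 per kb (Apoc1, also red).

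Pltp (chromosome 2, 164839518 to 164857711, minus strand, 2562 bases of exon) had a value of 5529, above 94.9% of detected genes. Its level was 2158 per kb, above 95.8%, and it came after Apoe and Lrp1 among the 9 genes. It lay close to Apoc1, and with transcript or coding lengths Apoc1 was the higher one. Exons of Pltp share 495 bases (19.3%) with Ctsa, the lysosomal cathepsin A gene on the opposite strand, which had a value of 31443. The strand setting of the counting is not stated, so reads in those bases could have gone to either gene or to neither. When the shared bases were left out of its length, a setting chosen after the overlap was seen, Pltp was at 2675 per kb and held place 3. Its whole value was kept, so the level could only rise and its place could not fall. This setting cannot show what Ctsa reads counted to Pltp would change.

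Abca1 (chromosome 4, 53030787 to 53159895, minus strand, 10363 bases of exon) had a value of 5532, only 3 above that of Pltp. Because its exons are longer, its level was 534 per kb, and Pltp was 4.04 times higher per kb. Abcg1 (chromosome 17, 31057675 to 31117988, plus strand, 7298 bases of exon) had a value of 784 and a level of 107 per kb, above 51.1% of detected genes. Abca1 was above 83.5% of them. The level of Abca1 was thus 4.97 times that of Abcg1, and 2.08 times with coding lengths.

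Most relatives of these transporters were lower. In a list of 20 other genes of ABC subfamilies A and G, 15 were detected (75%, against 67.2% of all rows) and 3 lay above the detected median per kb. Abca3, a lipid transporter known for lung surfactant, was at 362 per kb (value 3396), Abca2, known from myelin-forming cells, at 263 (value 2198) and Abca7, which is active in phagocytes, at 262 (value 1770). Exons of Abca3 share 914 bases with a gene on the opposite strand. Abca13 was the lowest detected gene, at 0.557 per kb (value 11). Abcg5 and Abcg8, the sterol exporters of liver and gut, were listed at 0, as were Abca14 and Abca16. Abca12 had a value of 4. Abcg4, the closest relative of Abcg1 and named after its value was seen, was at 12.9 per kb (value 67), so Abcg1 was 8.36 times higher. Among the 22 genes Abca1 had the highest level under each of the 4 lengths and held 27.1% to 31.0% of the summed level. Abcg1 held place 5, and places 3 to 5 over the 4 lengths.

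Lrp1, a large endocytic receptor for apolipoprotein E and many other ligands, led the receptors (chromosome 10, 127538161 to 127621148, minus strand, 17717 bases of exon). Its value was 53849, rank 32 of the table and above 99.8% of detected genes. Its level was 3039 per kb, above 97.0%, and second of the 9 genes. Vldlr (chromosome 19, 27216484 to 27254231, plus strand, 10068 bases of exon) had a value of 423 and a level of 42.0 per kb. Lrp8 (chromosome 4, 107802261 to 107876840, plus strand, 10514 bases of exon) had a value of 402 and a level of 38.2 per kb. Both encode receptors for reelin, a guidance protein of migrating neurons, as well as for apolipoprotein E. Vldlr was above 31.3% of detected genes per kb and Lrp8 above 29.6%. Lrp1 was 72.3 times higher than Vldlr and 79.5 times higher than Lrp8, and with coding lengths 24.5 and 28.1 times. Vldlr and Lrp8 could not be ordered. Their ratio was 1.10 with exon lengths, 1.15 with coding lengths, 0.875 with the longest transcript and 0.601 with the principal transcript.

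All 11 other listed members of the lipoprotein receptor family were detected (100%, against 67.2% of all rows), and 4 lay above the detected median per kb. Lrp10 was at 535 per kb (value 2386), with 475 exon bases shared with an antisense gene. Lrp5, a Wnt co-receptor, was at 316 (value 3075). Lrp1b, a close relative of Lrp1, was lowest at 0.547 per kb (value 13). Of the 14 receptor genes Lrp1 held 65.1% of the summed level per kb, and 51.4% with the length that gave the lowest share. Vldlr held place 11 and Lrp8 place 12 with exon lengths, and each held places 8 to 12 over the 4 lengths.

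In order of level per kb of exon the 9 genes ran Apoe, Lrp1, Pltp, Apoc1, Abca1, Apod, Abcg1, Vldlr and Lrp8. With 1 library the spread of each level between cultures is not known, so no neighbours in this order are shown to differ. Apoe kept place 1 and Abcg1 place 7 under each of the 4 lengths. Lrp1, Pltp and Apoc1 exchanged places 2 to 4. Abca1 and Apod held places 5 and 6, with Apod the higher one when coding lengths were used. The coding length is 6783 of 10363 exon bases for Abca1 and 567 of 2577 for Apod.

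**Figure D3:**
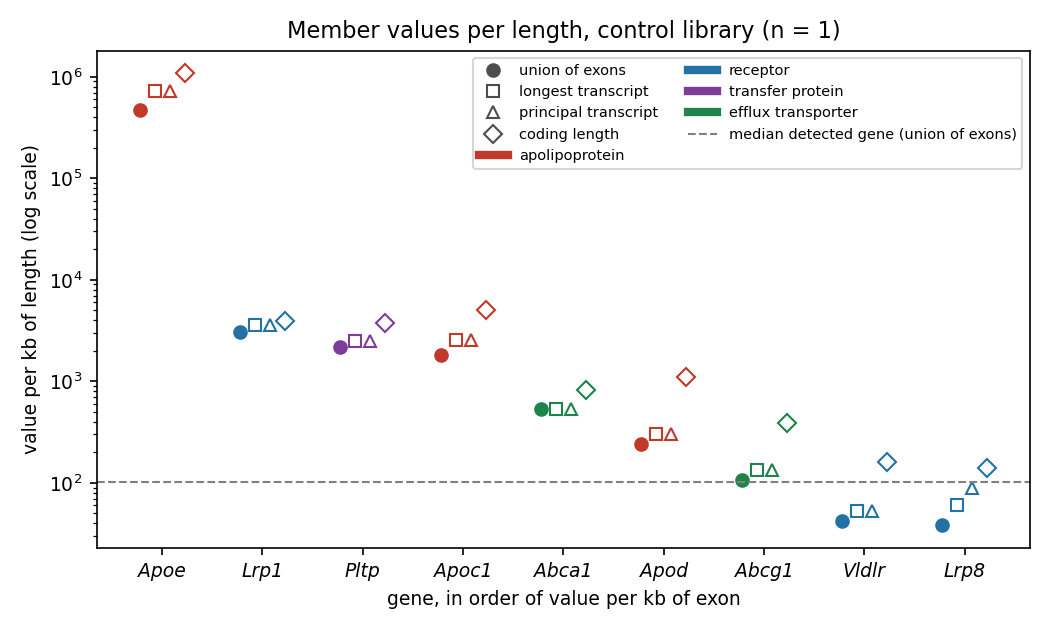
Symbols show the value per kb of length on a log scale for each of the 9 genes under 4 definitions of length (filled circle, union of exons; square, longest transcript; triangle, principal transcript; diamond, coding length), coloured by role, with the median detected gene by union of exons as a dashed line. The symbols of Lrp1, Pltp and Apoc1 overlap in height, as do those of Vldlr and Lrp8, while Apoe lies above all others.

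Genes that act with these receptors were listed next. Of 9 chaperones, adaptors and ligands, 8 were detected (88.9%, against 67.2% of all rows) and 6 lay above the detected median per kb. Lrpap1, the chaperone that keeps LRP1 and its relatives free of ligand during synthesis, was at 2877 per kb (value 11842). That is 0.947 of the Lrp1 level, but 1.10 times that level with transcript lengths and 2.78 times with coding lengths. The endocytic adaptor Dab2 was at 1467 per kb (value 10773), and Snx17, which recycles LRP1, at 713 (value 2203). Reln, the ligand of VLDLR and LRP8 in the reelin pathway, was the lowest detected gene at 4.55 per kb (value 108). Exons of Snx17 overlap genes on the opposite strand.

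Of 6 other receptors for lipoproteins, all were detected (100%, against 67.2% of all rows) and 5 lay above the detected median per kb. These were led by receptors known from macrophages. The scavenger receptor gene Stab1 was at 1679 per kb (value 17275), Msr1, another scavenger receptor gene, at 1227 (value 7781) and Trem2, which binds apolipoprotein E on microglia, at 1173 (value 5801). Olr1, which encodes a receptor for oxidised lipoprotein, was lowest at 75.9 per kb (value 271). Compared with these, Lrp1 had a higher level and Vldlr and Lrp8 had lower ones.

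Among 10 genes of lipoprotein remodelling and assembly, 8 were detected (80%, against 67.2% of all rows) and 3 lay above the detected median per kb. Lpl, the lipoprotein lipase gene, was at 1508 per kb (value 15800), which is 0.699 of the Pltp level but 1.55 times that level with transcript lengths and 2.97 times with coding lengths. Lbp, a relative of Pltp that binds lipopolysaccharide, was at 1135 (value 5485). Lcat, which esterifies cholesterol on particles, was at 396 (value 532). Lipc, the hepatic lipase gene, was lowest at 7.44 per kb (value 16). Bpi, another relative of Pltp, was listed at 0, and Gpihbp1, which anchors lipoprotein lipase on capillary endothelium, had a value of 1.

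The liver X receptors and their partners were all detected, 7 of 7 against 67.2% of all rows, with 5 above the detected median per kb. Nr1h2, which encodes liver X receptor beta, was at 763 (value 2558), and Rxra, the gene of a partner receptor, at 427 (value 2334). Rxrg, a relative of Rxra, was lowest at 40.9 per kb (value 94). Nr1h3, which encodes liver X receptor alpha and was named after its value was seen, was at 93.8 per kb (value 236), so Nr1h2 was 8.13 times higher. Of 10 other known targets of these receptors, 8 were detected (80%) and the same number lay above the detected median. Scd2, a fatty acid desaturase, was at 854 per kb (value 4664), Arl4c, a small GTPase gene, at 516 (value 2832) and Mertk, a phagocytic receptor, at 476 (value 2065). Scd1 was the lowest detected target at 158 per kb (value 774), and Abcg5 and Abcg8 were the targets listed at 0. The Abca1 level lay among those of these targets, the levels of Apoe and Pltp above all of them and the level of Abcg1 below each of the 8 detected ones.

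The library holds several cell types, and fewer cells of a type and less RNA per cell cannot be told apart in it. Summed values of marker lists describe the mixture only roughly, because they are not divided by length and the lists differ in size. They do not give shares of cells. The paper describes its VM glial cultures as mostly astrocytes positive for GFAP, with a smaller part of microglia positive for Iba1. Counts of detected markers are read beside the 67.2% of all rows that were detected. All 10 microglia markers were detected and summed to 7373 per 1000000 of all values, from Tmem119 at 425 per kb to C1qa at 31364 per kb. All 10 astrocyte markers were detected and summed to 2097 per 1000000, from Slc1a2 at 142 per kb to Gfap at 4083 per kb. The 8 mesenchymal markers summed to 5815 per 1000000, from Lum at 186 per kb to Acta2 at 12067 per kb. Of that list's summed values, 160302, Fn1 held 95749 and was named after its value was seen. The median level per kb was 743 for the mesenchymal, 684 for the astrocyte and 5080 for the microglia list. The 8 oligodendrocyte lineage markers summed to 1252 per 1000000, with Sox10 lowest at 15.7 per kb. Neuron markers (5 of 8 detected, 62.5%) summed to 58.6 per 1000000 and endothelial markers (4 of 6, 66.7%) to 95.2. Both shares were near the 67.2% of all rows, so these counts do not set the 2 lists apart. The glutamatergic neuron gene Slc17a6 and the endothelial gene Tek were at 0, while the neuron genes Map2 (value 868), Tubb3 (124) and Rbfox3 (20) and the endothelial genes Kdr (119), Cdh5 (43) and Pecam1 (33) were detected. These 6 detected genes were named after their values were seen. Of these lists, Nefm was the highest neuron marker at 87.9 per kb, with 1108 exon bases shared with Nefl on the opposite strand, and Flt1 the highest endothelial one at 180 per kb. Of 6 choroid plexus and ependymal markers, 4 were detected (66.7%, near the 67.2% of all rows). Cfap126 was highest at 1789 per kb, Kl was at 0, and Ttr, the defining gene of choroid plexus, had a value of 2. For comparison, Apoe alone stood at 36641 per 1000000. Which of these cells carried the Apoe RNA or that of the other 8 genes was not tested.

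Words of annotated transcripts were compared between genes, and reads themselves were not examined. Pltp, Lrp8, Apod and Abcg1 shared words of 50 bases with other genes. No word of 50 bases in the annotated transcripts of Apoe, Lrp1, Apoc1, Abca1 or Vldlr occurred in a transcript of another gene. For Pltp, 10.8% of such words occurred in Ctsa, which is the overlap described above. The share was 0.225% for Apod, 0.177% for Abcg1 and 0.398% for Lrp8, and with words of 100 bases it was 0 for these 3. Among the 9 genes Pltp was the one with exons overlapping another annotated gene.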

How the data were processed

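RNA of VM-derived mixed glia was sequenced, and 1 control library was analysed. The deposited values are a score on the read-count scale: the authors describe them as normalised read counts, and they are whole numbers. The study's methods give trimming below quality 20, mapping to GRCm38/mm10 with STAR and counting on exons of RefSeq Release 105 with HTSeq-count, while the submitters' processing notes name TopHat, edgeR and mm10. The normalisation, strand setting and handling of multi-mapped reads are not given in the sources used here, and a normalisation that depends on the gene would alter levels. The read depth is unknown, so the sum of values (27569507) stands in its place and no interval is given.

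Values were divided by the union of exons in GENCODE M21 (GRCm38), to which 22815 symbols (98.2%) were matched, 645 of them through older symbols; Mesd carried an older symbol. This is not the annotation that was counted on. Detection needed a value of at least 10. The alternatives were other minima (1, 3 and 100), totals without Rn45s or the 10 highest genes, 3 other lengths (longest transcript, principal transcript by APPRIS tag, coding length) and words of 75 and 100 bases. Upstream windows of 7 of the 9 genes were matched in a RefSeq table by symbol. The members and lists were chosen with earlier results of these data known. The text names the 9 genes, genes within 50 kb of Apoe, in each pathway list the 3 highest, the lowest detected and those at 0, and in each marker list the highest and lowest; exceptions are stated, and some genes the rule would name are not reported here. The functions were tested on simulated data. Computations used Python 3.11.15 and matplotlib 3.10.9.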

Additional observations from a re-analysis of the deposited data

How the results depend on the processing

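Of 246 values recomputed under alternatives, 197 kept their direction and stayed within 1.5 times of the reported value (or, for a place in the order, did not change), 41 moved and 8 turned direction. For some of the 197 no other outcome was possible. A gene without a shared word of 50 bases can share no longer word, and the overlap setting could not lower the place of Pltp. The tally is therefore not a measure of how stable the results are. No value was compared between samples, and no paired analysis was possible because there was 1 library. The 9 genes were all detected at minima of 1, 3 and 100, which follows from their values, the lowest being 402 for Lrp8. The percent of genes below Lrp8 was 30.9 when genes at 100 or more formed the background. With coding lengths the place in the order was 2 for Apoc1, 3 for Lrp1, 4 for Pltp, 5 for Apod and 6 for Abca1. With the longest and with the principal transcript it was 3 for Apoc1, 4 for Pltp, 8 for Lrp8 and 9 for Vldlr. The ratios that turned direction were Vldlr over Lrp8 (0.875 with the longest and 0.601 with the principal transcript), Lrpap1 over Lrp1 (1.10 with both transcript lengths and 2.78 with coding lengths) and Lpl over Pltp (1.55 and 2.97). These follow from the lengths, since the values are the same. At a minimum of 100, detected genes numbered 2 of the other apolipoproteins, 7 of the other ABC transporters and 3 of the oxysterol genes. The share of all rows at that minimum was not computed, so these counts have no background to be read against. With coding lengths 1 of the other ABC transporters and 1 of the oxysterol genes lay above the detected median. The share of Pltp words found in Ctsa was 6.94% with words of 100 bases. For Apod and Abcg1 the share was 0 with words of 75 and of 100 bases, and for Lrp8 it was 0.00914% and 0. The lack of a second library limits each value to this culture.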

Other observations

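Genes that handle sterol and lipid inside the cell were listed next to the 9 genes. All 12 were detected (100%, against 67.2% of all rows) and 10 lay above the detected median per kb. The fatty acid binding protein gene Fabp5 was at 7857 per kb (value 28024), Plin2, whose product coats lipid droplets, at 3493 (value 12268) and the astrocyte and radial glia gene Fabp7 at 2658 (value 3322). These levels were in the range of Lrp1 and Pltp or above it. Soat2 was the lowest at 7.68 per kb (value 17). For the lysosomal exporters of cholesterol, named after their values were seen, Npc2 was at 1583 per kb (value 8609) and Npc1 at 341 (value 3864).

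Oxysterols are made and broken down by 5 listed enzymes. All were detected (100%, against 67.2% of all rows) and 2 of them lay above the detected median per kb. Ch25h, the cholesterol 25-hydroxylase of macrophages, was at 1278 per kb (value 1773), Cyp46a1, the 24-hydroxylase known from neurons, at 124 (value 406) and Cyp27a1 at 81.5 (value 177). Cyp7b1, which breaks down 25-hydroxycholesterol, was lowest at 19.9 per kb (value 43). Exons of Ch25h share 159 bases with a gene on the opposite strand.

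Low values in the table fell more often on even than on odd numbers. Each of the 10 even values from 4 to 22 was held by more rows than the mean of the odd values on both its sides, and the same was true of 2 of the 10 odd values from 5 to 23. For example, 326 rows had a value of 4, 209 a value of 5 and 226 a value of 6. The cause was not tested. Whether 1 sequenced fragment adds 1 or more to a value is not given in the sources used here, so the minimum of 10 cannot be read as a number of fragments.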
